A study of Homo sapiens with 6 samples.

Results

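Interferon-stimulated genes are the genes that cells switch on when interferon reaches its receptor, and 47 of them were followed here across the 6 arrays of a study of MDA-MB-231, a mesenchymal breast cancer line of human origin that is widely grown as a model of invasive disease. The members were taken by symbol, and where several probe sets name a gene, the brightest by its 6-array mean was taken. Of the 47 symbols, 46 had such a probe set, and STAT2 was not analysed here. GBP1 and GBP3 shared 1 probe set, which the annotation names GBP1P1, GBP3 and GBP1, and they were counted as 1, so that 45 measured members stood among 18377 genes. The other 44 members were read by a probe set that carries their symbol alone. The cells had been transfected either with a pTargeT plasmid into which GHSROS had been cloned, a long noncoding RNA gene on the strand opposite to the ghrelin receptor gene GHSR, or with empty pTargeT, and each group has 3 arrays. Both groups therefore carry the plasmid and differ in its insert, and whether the cells were selected for it, or came from 1 clone, the sources used here do not say. No probe set that the annotation names reads GHSROS, so its level could not be used to check the labels.

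An interferon receptor activates Janus kinases, which phosphorylate STAT proteins. Type I and type III interferons assemble a complex of STAT proteins and IRF9 that binds the interferon-stimulated response element (ISRE) in promoters, and interferon gamma assembles a STAT dimer that binds a gamma-activated site (GAS). The products detect foreign RNA, block viral entry and translation, tag proteins with the ubiquitin-like ISG15 or feed back on the pathway, and many tumour lines keep some of them on without added interferon.

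Values are RMA log2 expression per probe set, so a difference of 1 is a 2-fold difference on a linear scale, and array medians over all probe sets lay between 6.559 and 6.648. Differences are GHSROS minus empty vector throughout, tested with limma over the 18377 genes. Bulk arrays cannot tell fewer cells of a kind from less RNA per cell. The line's labels were checked against its markers. The 5 genes known to be high in it (VIM, CD44, AXL, FN1 and CAV1) had means over the arrays between 11.98 and 13.16. The 5 known to be low (ESR1, PGR, CDH1, EPCAM and GATA3) lay between 4.57 and 7.40. Among these, EPCAM at 7.37 and GATA3 at 7.40 lay above the array medians, while ESR1, PGR and CDH1 lay below.

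Of the 45 interferon-stimulated genes, 34 (75.6%) had a lower mean in the GHSROS arrays, where 49.1% of all genes were lower. Their median log2 difference was -0.10, beside 0.002 for all genes. The differences ran from -0.74 for IFITM1 to 0.28 for HERC5. None was past the test: 0 of 45 members and 0 of all genes (0.0%) reached an adjusted p of 0.05 in limma, in which every member had an adjusted p of 1. An unadjusted p under 0.05 was reached by 5 members (11.1%), beside 325 of all genes (1.77%). These were OAS1, OAS2, RIGI and IFI27, lower in the GHSROS arrays, and HERC5, higher. The 3 GHSROS arrays and the 3 empty-vector arrays did not overlap for 5 members (11.1%), where 5.51% of all genes showed this. They were OAS1, OAS2 and IFI27 below (3 members, 6.67%, beside 2.44% of genes) and HERC5 and USP18 above (2 members, 4.44%, beside 3.06%).

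**Figure D1:**
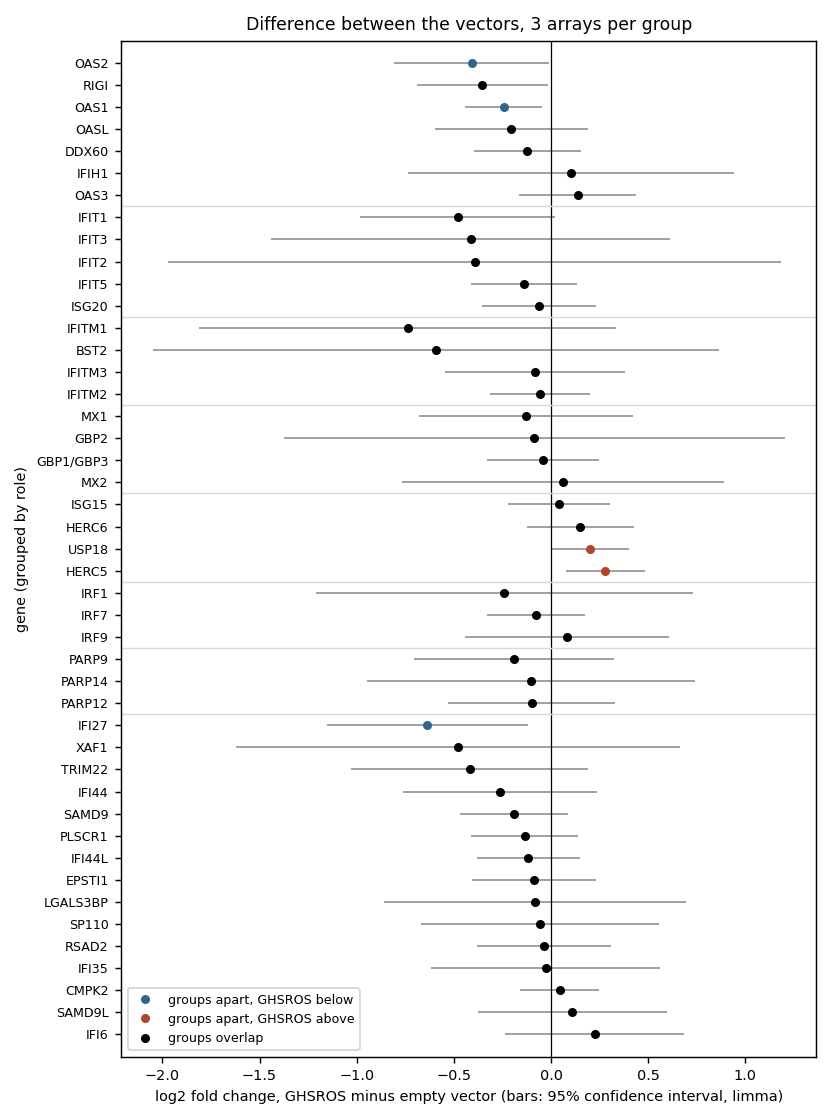
Log2 difference of each member, GHSROS minus empty vector (horizontal axis), with bars for the 95% confidence interval from limma, 3 arrays per group, and genes grouped by role down the page. Most points lie left of 0, most intervals cross it, and the widest intervals belong to IFIT2, BST2 and GBP2.

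The members differed more among arrays of the same vector than between the vectors. The mean of the 45 members was 7.50, 7.59 and 8.05 on GHSROS arrays 1, 2 and 3, and 8.17, 7.80 and 7.59 on empty-vector arrays 1, 2 and 3. GHSROS array 3 and empty-vector array 1 were thus the highest of their groups, and the groups overlapped. Of the 45 members, 37 (82.2%) had their highest value on 1 of these arrays, where 38.5% of all genes did, and 27 (60.0%) had both of these arrays above the other 4, where 18.9% of all genes did. GHSROS array 1 was the lowest array for 20 members (44.4%), beside 13.3% of all genes. The highest and lowest array were at least 1 log2 unit apart for 12 members (26.7%) and for 5.57% of all genes. The median SD within groups was 0.29 over the members and 0.15 over all genes. These shares describe 6 arrays, and members of a pathway do not vary independently of each other.

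**Figure D2:**
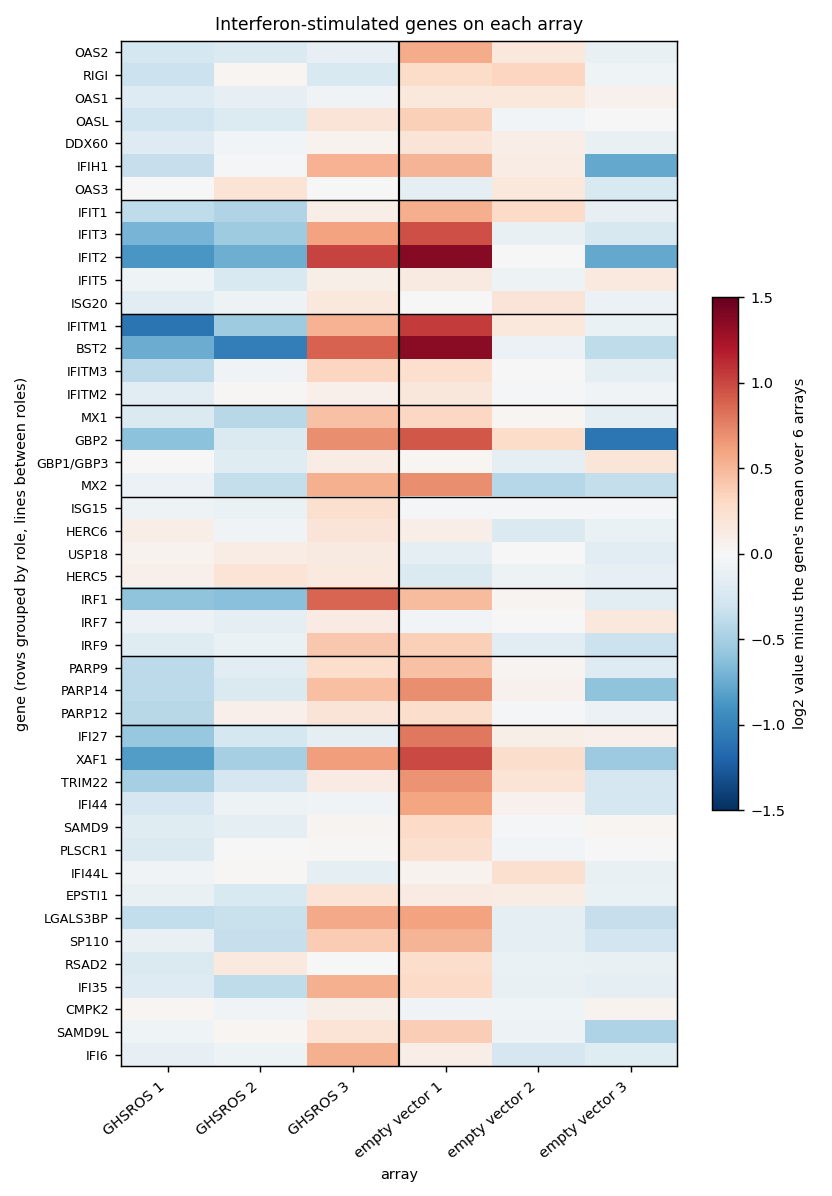
Log2 value of each member (rows, grouped by role) on each array (columns, GHSROS arrays left of the empty-vector arrays), as the difference from that gene's mean over the 6 arrays. GHSROS array 3 and empty-vector array 1 are the reddest columns, and IFIT2, IFIT3, IFITM1, BST2, GBP2 and XAF1 have the strongest colours.

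The same arrays stood apart in other gene lists. The mean of 24 mitosis genes was 11.14, 11.08 and 10.12 on GHSROS arrays 1, 2 and 3, and 10.09, 10.92 and 11.15 on empty-vector arrays 1, 2 and 3. The mean of 15 genes driven by ATF4, which switches on amino acid supply genes under stress, was 9.40, 9.48 and 10.33 on the GHSROS arrays and 10.29, 9.78 and 9.29 on the empty-vector arrays. GHSROS array 3 and empty-vector array 1 were therefore lowest in mitosis genes and highest in ATF4 targets as well as highest in interferon-stimulated genes. The part of either list in the values below was not tested. Leukocytes carry many interferon-stimulated genes, and the summed level of 10 of their 12 markers, given as a mean, ran from 4.97 to 5.04 in the GHSROS arrays and from 4.87 to 4.99 in the empty-vector arrays. Single markers had means over the 6 arrays from 3.61 for PTPRC to 7.04 for NKG7, and NKG7 lay above the array medians. PTPRC, the gene of the leukocyte antigen CD45, was at 3.68, 3.65 and 3.62 in the GHSROS arrays and at 3.62, 3.56 and 3.55 in the empty-vector arrays, near the low end of the array. CD3D, a T-cell receptor subunit gene, was the 1 marker of the 10 with the groups apart, at 4.96, 5.17 and 5.18 in the GHSROS arrays and at 4.83, 4.59 and 4.90 in the empty-vector arrays (difference 0.33, SE 0.12). Array values have no true 0, so none of the markers could be called absent.

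**Figure D3:**
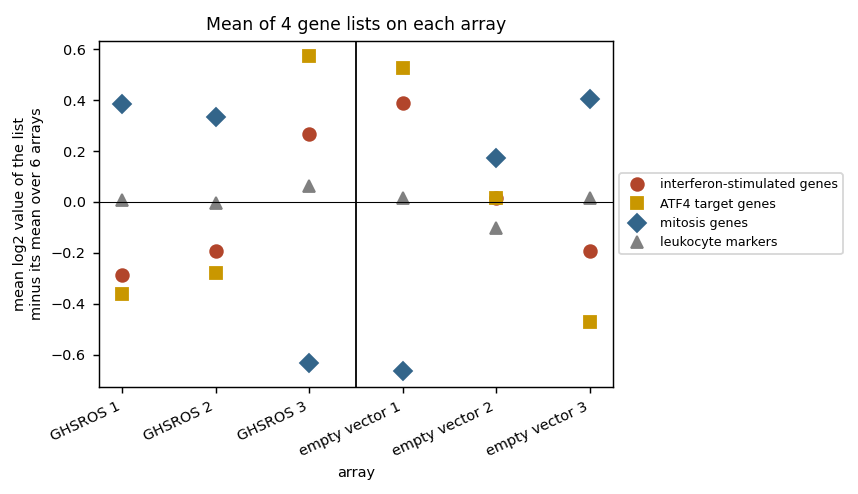
Mean log2 value of 4 gene lists on each array (horizontal axis, GHSROS arrays left), as the difference from the list's own mean over the 6 arrays. Interferon-stimulated genes (circles) and ATF4 targets (squares) are high, and mitosis genes (diamonds) low, on GHSROS array 3 and empty-vector array 1, while leukocyte markers (triangles) stay near 0.

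GHSROS array 3 and empty-vector array 1 were then both left out, a choice made after the members were seen to be highest on them. In that fit 35 of 45 members (77.8%) were lower in the GHSROS arrays, where 52.2% of all genes were. The median difference was -0.12 over the members and -0.006 over all genes. The split was thus chosen from the values it describes, and the mean of the members was 7.59 on both GHSROS array 2 and empty-vector array 3. Among the remaining arrays, GHSROS arrays 1 and 2 both lay below empty-vector arrays 2 and 3 for 16 members (35.6%), where 13.7% of all genes did. They lay above for 5 members (11.1%), beside 11.6% of all genes. The 16 included IFIT1, IFIT3, IFITM1, BST2, IRF1, MX1, ISG15 and TRIM22, and the 5 were HERC5, HERC6, USP18, IFI6 and SAMD9L. With 1 array left out at a time, the count of lower members ran from 24 to 38 of 45, and it reached its low of 24 when GHSROS array 1 was omitted and again when empty-vector array 1 was. The fit called 0 members under each of these omissions.

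The RNA sensors and the enzymes they work with held 3 of the 5 members with an unadjusted p under 0.05. OAS1 and OAS2 are oligoadenylate synthetases, which answer RNA duplexes by making short oligoadenylates that set off RNA decay. OAS1, read by probe set 7958884, was at 6.83, 6.90 and 6.97 in the GHSROS arrays and at 7.18, 7.18 and 7.09 in the empty-vector arrays. Every GHSROS array lay below every empty-vector array, and the log2 difference was -0.24 (SE 0.08, 95% confidence interval -0.44 to -0.05). OAS2 was at 7.001, 7.04 and 7.14 in the GHSROS arrays and at 7.83, 7.42 and 7.16 in the empty-vector arrays. The groups of OAS2 were only just apart, GHSROS array 3 lying under empty-vector array 3 by less than the spread of either group, and the difference of -0.41 (SE 0.17) came with an unadjusted p of 0.0463 in limma. OAS3, which lies between OAS1 and OAS2 on chromosome 12, differed by 0.14 (SE 0.13), and OASL, a relative that lacks the synthetase activity, by -0.20 (SE 0.17).

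RIGI, the RIG-I helicase that recognises RNA with a 5′ triphosphate, was at 10.17, 10.52 and 10.26 in the GHSROS arrays and at 10.76, 10.81 and 10.43 in the empty-vector arrays. Its groups overlapped because GHSROS array 2 lay above empty-vector array 3, and its difference was -0.35 (SE 0.14, 1.28-fold lower). IFIH1, the MDA5 sensor of long RNA duplexes, was at 6.12, 6.44 and 6.99 in the GHSROS arrays and at 6.97, 6.58 and 5.69 in the empty-vector arrays, a difference of 0.10 with an interval from -0.74 to 0.94. Its 6 values spread over 1.30 log2 units, with its lowest value on empty-vector array 3. DDX60, a helicase named as a cofactor of RIG-I, differed by -0.12 (SE 0.12). Of the 7 members of this group 5 were lower and 2 higher, with a median of -0.20.

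**Figure D4:**
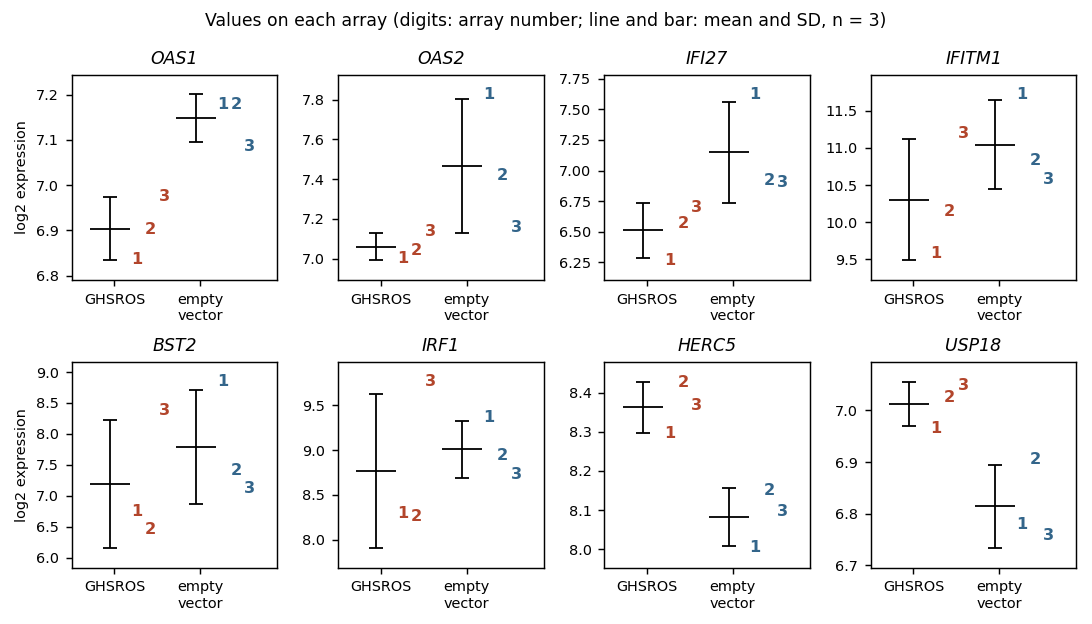
Log2 expression of 8 members on each array, GHSROS left and empty vector right in every panel, with digits for the array number and a line and bar for the mean and SD (n = 3). The groups are apart for OAS1, OAS2 and IFI27 (GHSROS below) and for HERC5 and USP18 (GHSROS above), while IFITM1, BST2 and IRF1 overlap because GHSROS array 3 lies far above GHSROS arrays 1 and 2.

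All 5 RNA-binding effectors had lower means in the GHSROS arrays, with a median difference of -0.39. IFIT1, IFIT2 and IFIT3 belong to a family that binds viral RNA ends and blocks translation. Together with IFIT5 they lie close to each other on chromosome 10. IFIT1 was at 6.63, 6.56 and 7.11 in the GHSROS arrays and at 7.56, 7.30 and 6.89 in the empty-vector arrays. Only the pair of GHSROS array 3 and empty-vector array 3 kept the groups of IFIT1 from being apart, and the difference was -0.48 (SE 0.21, interval -0.98 to 0.02, unadjusted p of 0.0576 in limma). IFIT3 was at 6.57, 6.74 and 7.88 in the GHSROS arrays and at 8.24, 7.16 and 7.04 in the empty-vector arrays, a difference of -0.41 (SE 0.43) that became -0.82 when GHSROS array 3 was omitted and -0.0305 when empty-vector array 1 was. IFIT2 was at 6.12, 6.26 and 8.00 in the GHSROS arrays and at 8.36, 6.98 and 6.22 in the empty-vector arrays. The 6 values of IFIT2 spanned 2.23 log2 units, or 4.70-fold, and its difference of -0.39 had an SE of 0.66. IFIT5 spanned 0.38 units only and was at 8.69, 8.52 and 8.84 in the GHSROS arrays and at 8.88, 8.68 and 8.90 in the empty-vector arrays (difference -0.14, SE 0.12). ISG20, an exonuclease that degrades RNA, differed by -0.06 (SE 0.12).

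Membrane factors that hold viruses at the cell surface or in endosomes showed the widest spread. BST2, or tetherin, ties budding virions to the membrane, and it was at 6.75, 6.45 and 8.38 in the GHSROS arrays and at 8.84, 7.40 and 7.11 in the empty-vector arrays. Its span of 2.39 log2 units was the widest of the 45 members, 5.23-fold, and its difference was -0.59 (SE 0.61). With GHSROS array 3 omitted the difference of BST2 was -1.18, and with empty-vector array 1 omitted it was -0.0652. IFITM1, which restricts virus entry at the plasma membrane, was at 9.58, 10.14 and 11.20 in the GHSROS arrays and at 11.72, 10.83 and 10.58 in the empty-vector arrays. The difference of IFITM1 was -0.74, or 1.67-fold lower, the largest among the members over the 6 arrays, but its SE was 0.45 and its interval ran from -1.81 to 0.34. Omitting 1 array moved it to between -1.18 (GHSROS array 3 omitted) and -0.37 (GHSROS array 1 omitted), and the rank did not hold. IFI27 differed by more, at -0.51, with GHSROS array 1 omitted. It also did so without GHSROS array 2 (-0.665 beside -0.6564) and without empty-vector array 1 (-0.4007 beside -0.3981). Without GHSROS array 3, BST2 differed by more (-1.1848 beside -1.183). The neighbours of IFITM1 on chromosome 11 stayed closer to level. IFITM3, which acts in endosomes, was at 11.97, 12.31 and 12.69 in the GHSROS arrays and at 12.62, 12.37 and 12.23 in the empty-vector arrays. Its difference was -0.08 (SE 0.20), and IFITM2 differed by -0.06 (SE 0.11). IFITM1, IFITM2 and IFITM3 encode similar proteins, and how far their probe sets read each other's RNA was not tested.

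The promoters of the members were searched for the sequences that interferon-activated complexes are known to bind. In the RefSeq promoter table of GRCh38.p14, which gives 250 bases before and 50 after a start site, 37 of the 46 measured symbols had at least 1 promoter. The others, IFIT2, GBP2, OAS2, OASL, USP18, MX2, IRF7, TRIM22 and IFITM2, had none there and were not searched. The ISRE core was searched on both strands as GAAA, then any 2 bases, then GAAA again, and 27 of the 37 (73.0%) held it, where 4.38% of the 27305 genes of the table did. At least 2 cores in 1 promoter were present in 14 of the 37 (37.8%), beside 0.311% of genes. The GAS was searched as TTCNNNGAA, which reads alike on both strands, and was present in 14 of the 37 (37.8%), beside 9.38% of genes. In 5 members an ISRE core and a GAS overlapped, and RIGI, HERC6, CMPK2, XAF1 and SAMD9L held neither. A match is a string of letters and not a measured binding site. IFIT2 and GBP2, with SDs of 0.98 and 0.78 over the 6 arrays, had no promoter to search. Among the searched members with an ISRE core and values given for each array, BST2, IFITM1, IFIT3 and PARP14 varied most. Their SDs were 0.94, 0.76, 0.65 and 0.50, and their promoters are shown with capitals marking the cores.
BST2, chr19:17405581-17405880, minus strand: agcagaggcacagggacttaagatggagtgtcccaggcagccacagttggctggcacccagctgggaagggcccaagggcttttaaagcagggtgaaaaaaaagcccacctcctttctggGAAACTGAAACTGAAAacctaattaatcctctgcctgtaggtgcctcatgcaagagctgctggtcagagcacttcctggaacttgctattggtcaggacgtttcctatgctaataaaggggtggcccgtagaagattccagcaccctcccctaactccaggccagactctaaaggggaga
IFITM1, chr11:313790-314089, plus strand: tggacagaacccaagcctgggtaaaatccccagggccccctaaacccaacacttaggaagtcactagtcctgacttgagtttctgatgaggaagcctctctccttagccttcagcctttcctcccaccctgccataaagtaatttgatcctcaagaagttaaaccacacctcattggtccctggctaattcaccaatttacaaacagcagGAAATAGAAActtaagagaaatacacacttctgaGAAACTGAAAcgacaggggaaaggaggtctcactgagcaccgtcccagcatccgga
IFIT3, chr10:89327747-89328046, plus strand: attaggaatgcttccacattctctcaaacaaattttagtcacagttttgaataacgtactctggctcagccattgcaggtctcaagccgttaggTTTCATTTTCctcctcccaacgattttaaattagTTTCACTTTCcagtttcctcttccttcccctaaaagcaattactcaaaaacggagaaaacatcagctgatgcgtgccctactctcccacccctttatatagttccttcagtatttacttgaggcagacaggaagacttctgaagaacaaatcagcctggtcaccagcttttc
PARP14, chr3:122680589-122680888, plus strand: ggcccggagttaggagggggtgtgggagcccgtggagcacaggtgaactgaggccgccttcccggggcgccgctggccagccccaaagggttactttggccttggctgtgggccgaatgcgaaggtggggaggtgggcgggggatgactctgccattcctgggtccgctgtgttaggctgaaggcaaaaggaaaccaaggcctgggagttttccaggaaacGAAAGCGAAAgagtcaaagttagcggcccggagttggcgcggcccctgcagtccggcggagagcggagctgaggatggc

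In BST2 the cores started at positions -130 and -124 from the start site and overlapped each other, and in IFITM1 they lay at -40 and -6. IFIT3 had cores at -156 and -122, written here as their reverse complement, and PARP14 had 1 core at -29. The spread over the arrays was similar in range with and without a core. The 27 members with a core had a median span of 0.68 log2 units (0.33 to 2.39), and the 10 without had 0.77 (0.15 to 1.84). Among those without, IRF1 and XAF1 spanned 1.51 and 1.84 units. IFIT2 and GBP2, which spanned 2.23 and 2.01 units, had no promoter to search and are in neither set. The median difference between the vectors was -0.10 with a core, 22 of 27 being lower, and -0.04 without, 6 of 10 being lower. The GBP1 and GBP3 promoters are counted separately here although both genes were read by 1 probe set.

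**Figure D5:**
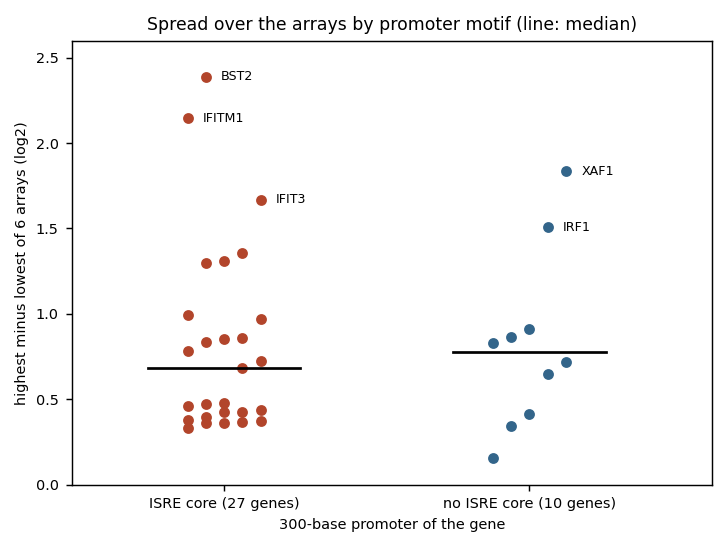
Difference between the highest and the lowest of the 6 arrays (vertical axis, log2) for members with an ISRE core in a 300-base promoter (left, 27 genes) and without (right, 10 genes), each point a gene and the line the median. Both sets reach from under 0.5 to over 1.5, with BST2, IFITM1 and IFIT3 at the top on the left and XAF1 and IRF1 at the top on the right. Members with no promoter to search, IFIT2 and GBP2 among them, are not drawn.

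In the ISG15 system 4 of 4 members had higher means in the GHSROS arrays, with a median of 0.17. ISG15 is joined to other proteins, in human cells chiefly by the ligase HERC5, and USP18 removes it and also restrains the interferon receptor. HERC5 was at 8.30, 8.43 and 8.37 in the GHSROS arrays and at 8.00, 8.15 and 8.10 in the empty-vector arrays. Its groups were apart, and its difference of 0.28 (SE 0.09, interval 0.08 to 0.48, 1.21-fold higher) had the smallest unadjusted p of the members, 0.0144 in limma. USP18 was at 6.96, 7.03 and 7.05 in the GHSROS arrays and at 6.78, 6.91 and 6.76 in the empty-vector arrays, a difference of 0.20 (SE 0.08). A second USP18 probe set, 8074606, which also names USP41P, did not show this: it was at 6.25, 6.36 and 5.99 in the GHSROS arrays and at 5.97, 6.37 and 6.32 in the empty-vector arrays, a difference of -0.02. HERC6, next to HERC5 on chromosome 4, differed by 0.15 (SE 0.12). ISG15 itself was at 7.59, 7.57 and 7.90 in the GHSROS arrays and at 7.65, 7.64 and 7.64 in the empty-vector arrays. Its difference of 0.04 (SE 0.11) rested on GHSROS array 3 and was -0.06 with both arrays that stood apart left out. Unlike most members, HERC5 had its lowest value on empty-vector array 1.

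Transcription factors of the pathway differed by less than their spread. IRF1, which drives interferon gamma targets, was at 8.29, 8.26 and 9.77 in the GHSROS arrays and at 9.36, 8.94 and 8.73 in the empty-vector arrays. GHSROS array 3 was its highest array while GHSROS arrays 1 and 2 were its lowest, and its difference was -0.24 (SE 0.41). IRF9, the DNA-binding partner of the STAT proteins, was at 7.87, 7.95 and 8.45 in the GHSROS arrays and at 8.41, 7.88 and 7.73 in the empty-vector arrays (difference 0.08, SE 0.22). IRF7, which raises interferon alpha genes, was at 7.98, 7.93 and 8.19 in the GHSROS arrays and at 8.03, 8.07 and 8.23 in the empty-vector arrays (difference -0.08, SE 0.11).

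The GTPases varied more than they differed. GBP2, a guanylate-binding protein that coats vacuoles of intracellular pathogens, was at 5.95, 6.35 and 7.27 in the GHSROS arrays and at 7.50, 6.84 and 5.49 in the empty-vector arrays. It spanned 2.01 log2 units and had a difference of -0.09 with an interval from -1.37 to 1.203, and its second probe set gave -0.13. The probe set of GBP1 and GBP3 was at 10.30, 10.11 and 10.41 in the GHSROS arrays and at 10.33, 10.15 and 10.47 in the empty-vector arrays (difference -0.04, SE 0.12), and a second probe set that names GBP3 alone gave -0.05. MX1, a dynamin-like GTPase that blocks viral ribonucleoproteins, was at 6.46, 6.27 and 7.12 in the GHSROS arrays and at 6.99, 6.71 and 6.53 in the empty-vector arrays (difference -0.13, SE 0.23). MX2, its neighbour on chromosome 21, spanned 1.12 units and differed by 0.06 (SE 0.35).

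PARP9, PARP12 and PARP14, enzymes or partners of ADP-ribosylation, had lower means in the GHSROS arrays in 3 of 3 genes, with a median of -0.10. PARP9 was at 6.43, 6.67 and 7.09 in the GHSROS arrays and at 7.26, 6.86 and 6.63 in the empty-vector arrays (difference -0.19, SE 0.22). PARP14, near PARP9 on chromosome 3, differed by -0.10 (SE 0.36). It was at 8.53, 8.71 and 9.38 in the GHSROS arrays and at 9.62, 8.98 and 8.31 in the empty-vector arrays. PARP12 was at 9.69, 10.19 and 10.31 in the GHSROS arrays and at 10.37, 10.09 and 10.02 in the empty-vector arrays (difference -0.10, SE 0.18). In all 3 genes empty-vector array 1 was highest and GHSROS array 3 came next.

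Among the 15 other effectors, 12 were lower and 3 higher in the GHSROS arrays, with a median of -0.09. IFI27, a small mitochondrial and nuclear envelope protein gene, was at 6.27, 6.57 and 6.70 in the GHSROS arrays and at 7.62, 6.92 and 6.90 in the empty-vector arrays. Its groups were apart, and its difference was -0.64 (SE 0.22, interval -1.15 to -0.12, 1.56-fold lower), with an unadjusted p of 0.0225 in limma. XAF1, which favours apoptosis, was at 6.14, 6.49 and 7.61 in the GHSROS arrays and at 7.98, 7.26 and 6.44 in the empty-vector arrays (difference -0.48, SE 0.48). Omitting GHSROS array 3 gave -0.91 and omitting empty-vector array 1 gave -0.10. LGALS3BP, a secreted glycoprotein gene, was at 11.00, 11.04 and 11.94 in the GHSROS arrays and at 11.97, 11.24 and 11.03 in the empty-vector arrays, so that its high arrays were nearly level across the groups and its difference was -0.08 (SE 0.33). TRIM22, a ubiquitin ligase, differed by -0.42 (SE 0.26), IFI44 by -0.26 (SE 0.21) and SAMD9, which inhibits translation of viral RNA, by -0.19 (SE 0.12).

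The remaining effectors differed by between -0.14 for PLSCR1, a phospholipid scramblase, and 0.22 for IFI6, an inhibitor of apoptosis. IFI6 was at 9.57 on GHSROS array 3, beside 8.91 and 8.97 on the other GHSROS arrays, and its difference was 0.0148 without that array. RSAD2, which encodes viperin, and its neighbour CMPK2 on chromosome 2, both standard markers of an interferon response, spanned 0.48 and 0.15 log2 units and differed by -0.04 (SE 0.14) and 0.04 (SE 0.09). RSAD2, at 4.24 in the GHSROS arrays and 4.28 in the empty-vector arrays, lay far below the array medians. With IFI44L at 5.01 and 5.12, these were dim probe sets. The members as a set were not: 25 of 45 lay below the median level of all genes, which by definition divides all genes evenly. That median over genes lies above the array medians, which are over all probe sets. The signs of ISG15, CMPK2 and RSAD2 turned when both arrays that stood apart were left out. IFI35 differed by -0.03 (SE 0.25), SP110, a nuclear body protein gene, by -0.06 (SE 0.26), EPSTI1 by -0.09 (SE 0.13) and SAMD9L by 0.11 (SE 0.21).

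Members that lie near each other often differed in spread. With at most 2 protein-coding genes between neighbours, 25 members fell into 10 clusters. In the IFIT cluster the span over the arrays was, in map order, 2.23 for IFIT2, 1.67 for IFIT3, 0.99 for IFIT1 and 0.38 for IFIT5. In the IFITM cluster it was 0.34 for IFITM2, 2.14 for IFITM1 and 0.72 for IFITM3, and in the GBP cluster 0.36 for the shared GBP1 and GBP3 probe set and 2.01 for GBP2. In the OAS cluster the differences were -0.24 for OAS1, 0.14 for OAS3 and -0.41 for OAS2. SAMD9 and SAMD9L on chromosome 7 differed by -0.19 and 0.11.

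Upstream of these genes, none of the pathway's other components that were measured passed the test. Interferon ligand genes were measured for 16 of 21 symbols, 8 higher and 8 lower in the GHSROS arrays, with 0 past the test. IFNB1, the gene of interferon beta, was at 3.86, 3.89 and 3.92 in the GHSROS arrays and at 3.78, 3.71 and 3.62 in the empty-vector arrays. Its groups were apart and its difference was 0.19 (SE 0.08), at a level near the low end of the arrays. IFNA21 differed by 0.20 (SE 0.12). The genes IFNA1, IFNA4, IFNA7, IFNA14 and IFNA17 were read by probe sets that name several interferon genes and were left out. Receptors and JAK-STAT genes were measured for 10 of 11 symbols, 4 higher and 6 lower with 0 past the test. The largest differences were 0.17 (SE 0.09) for IFNLR1, a chain of the interferon lambda receptor, and 0.09 (SE 0.12) for IFNGR1, of the interferon gamma receptor.

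Nucleic acid sensors and adaptors were measured for 17 of 18 symbols, 8 higher and 9 lower with 0 past the test. AIM2, a sensor of cytosolic DNA, was at 6.24, 6.33 and 6.46 in the GHSROS arrays and at 6.88, 6.59 and 6.45 in the empty-vector arrays, a difference of -0.30 (SE 0.13) with the groups just overlapping. IKBKE, a kinase that activates IRF3 and IRF7, differed by -0.25 (SE 0.21). Other IRFs and repressors were measured for 16 of 17 symbols, 11 higher and 5 lower with 0 past the test. IRF5 was at 6.14, 6.31 and 6.32 in the GHSROS arrays and at 6.10, 6.07 and 6.004 in the empty-vector arrays, with the groups apart and a difference of 0.20 (SE 0.09), and IRF3 differed by -0.15 (SE 0.11). The groups were also apart for SOCS3, a feedback inhibitor of Janus kinases, in the opposite direction, at 8.43, 8.43 and 8.39 in the GHSROS arrays and at 8.59, 8.49 and 8.502 in the empty-vector arrays (difference -0.11, SE 0.08). The medians of these 4 lists lay between -0.03 and 0.01, nearer to 0 than the -0.10 of the interferon-stimulated genes, and this gap was not tested.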

How the data were processed

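Total RNA from 6 MDA-MB-231 samples, which the study's design text calls biological replicates, was read on Affymetrix Human Gene arrays, 3 per group. Groups and replicate numbers came from the sample titles. The p-values reflect the variation among these samples, which may be technical where they were not grown apart. The deposited log2 values come from RMA, which the authors ran per the submitters' processing notes. Its version, steps and filters are not stated there. RMA usually quantile normalizes arrays, which removes shifts common to most genes, and dim probe sets can show compressed differences. No value was missing and 0 columns were left out. Arrays carry no read depth, and their number limits the precision.

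Of 28869 probe sets the platform annotation listed 19310 with 1 symbol and 1752 with several, and 7807 were not listed. Genes outside the list were read by their brightest probe set with 1 symbol. The fit used limma 3.58.1 in R 4.3.3 (lmFit, then eBayes, with group alone in a two-sided test and Benjamini-Hochberg adjustment over 18377 genes at 0.05), and was tested on simulated data. Members and lists were chosen with earlier results of these data known. Per-array values were given for the brightest member and those with the largest differences in each role and for members with groups apart. Those of IFIT2, IFIH1, ISG15, IRF7, IFI6, CD3D and SOCS3 were added after their values were seen. Per-array values are also given for PTPRC, IFNB1, AIM2 and IRF5, which are not members and which this rule did not cover. Alternatives were a replicate block, other scalings, a filter on level, other uses of probe sets, other variance models and omitted arrays. IFITM protein sequences, which were to be shown, were not analysed here.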

Additional observations from a re-analysis of the deposited data

How the results depend on the processing

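In limma 0 of 45 members and 0 of all genes were called under the 15 alternatives run. At an unadjusted p under 0.05 the count of genes was 325, and it moved to 877 with array weights (8 members), to 191 without GHSROS array 1 (1 member) and to 76 of 9189 genes with the filter at the median level (1 of 20 members). Under that filter 15 of the 20 members left were lower (75.0%, beside 55.8% of all genes), fewer than 34 because fewer were tested. The replicate block left 0 calls, 34 lower members and a median of -0.10, with 2 members and 223 genes at an unadjusted p under 0.05. Deviations of same-numbered arrays from their group means correlated at -0.71, 0.50 and -0.67 over genes. GHSROS arrays 1 and 3 each correlated best with an empty-vector array of another number. With 3 arrays per group, of which 1 stood apart in each, these correlations cannot tell whether same-numbered arrays were prepared together. The median difference of the members ran from -0.26 to -0.017 with 1 array left out, and their count of lower members from 24 to 38. As shares these were 53.3% to 84.4%, where the share of all genes ran from 42.9% to 51.9%. With array weights the median was -0.19 and 35 members were lower (77.8%, beside 45.6% of all genes). After quantile normalization or median centring 34 of 45 members were lower (75.6%), beside 48.7% and 44.5% of all genes, and 0 members turned direction. Array weights turned GBP1/GBP3 to 0.0136, IFIH1 to -0.16 and ISG15 to -0.0211, and omitting both arrays that stood apart (GHSROS 3 and empty-vector 1, a choice made after seeing the data) turned CMPK2 to -0.0074, ISG15 to -0.0616 and RSAD2 to 0.0746. The causes were not tested. With 1 array left out, 21 of 53 genes turned direction at least in 1 omission. Their ranges were GBP2 -0.65 to 0.36, IFI35 -0.30 to 0.15, IFITM2 -0.11 to 0.016, IFITM3 -0.27 to 0.0935, IRF1 -0.74 to 0.0164, ISG20 -0.16 to 0.0191, LGALS3BP -0.39 to 0.20, PARP12 -0.22 to 0.0867, PARP14 -0.43 to 0.22, RSAD2 -0.12 to 0.0889 and EPSTI1 -0.21 to 0.003. The others were GBP1/GBP3 -0.12 to 0.0395, MX1 -0.38 to 0.0452, SP110 -0.26 to 0.18, IFIH1 -0.26 to 0.38, IRF9 -0.10 to 0.28, ISG15 -0.0645 to 0.10, MX2 -0.19 to 0.42, IFIT2 -0.996 to 0.19, SAMD9L -0.0923 to 0.32 and IFNGR1 -0.0015 to 0.16. RIGI, IFITM1 and HERC5 kept their direction under the 15 alternatives, and OAS1, OAS2, IFI27, IFIT1, IFIT3, BST2 and USP18 under all but the filter, which left them out. Some sizes did not hold. The difference of USP18 was 0.089 with its probe sets averaged, and without empty-vector array 1 BST2 was at -0.0652 and IFIT3 at -0.0305.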
